A study of Homo sapiens and Mus musculus with 16 samples.

Results

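The chromatin remodelers of the SWI/SNF and ISWI type and the ARID family of DNA-binding proteins were followed here as mRNAs, in sorted P-bodies and in the cytoplasm of 4 cell types. Members were chosen by a rule on gene symbols, which was set with earlier results of these data known. It took SMARC genes with a letter from A to E, and ARID genes of families 1, 3, 4 and 5 with a family letter. It also took BRD7, BRD9, PBRM1, ACTL6A, ACTL6B, DPF1, DPF2, DPF3, PHF10 and SS18. The rule found 31 of the 22286 symbols in the human count table and 30 of the 15881 symbols in the mouse table, where no row for Actl6b was found. P-bodies are cytoplasmic condensates of RNA and protein, and in P-body-seq they are sorted by a fluorescent LSM14A protein, after which their RNA and that of the input fraction are sequenced. The question behind each comparison was which mRNAs each cell type holds in its P-bodies.

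Every cell carried a GFP-tagged LSM14A transgene. HEK293T-LSM14a-GFP is a human embryonic kidney line, and KH2-LSM14a-GFP is a mouse ES (mESC) line grown in serum-LIF. In both the study's methods name a lentiviral vector with an EF1a promoter. Liver bud progenitors and day 20 neurons were both made from UCLA4-LSM14a-GFP, a human ES line with the transgene at the AAVS1 locus. Each cell type had 2 P-body and 2 cytoplasm libraries. Cytoplasm here means the fraction before sorting. In the study's methods it is the resuspended pellet from a fast spin of the lysate, after nuclei were removed. RNA left in the supernatant of that spin is not part of it, so cytoplasm levels are not those of the whole cytoplasm. The fraction still holds P-bodies, so a P-body to cytoplasm ratio is nearer to 1 than the ratio to its RNA outside P-bodies. HEK293T and mESC libraries were labelled total RNA and the other 8 polyA RNA, so cell type and library kind cannot be told apart between these pairs. Only neurons and liver bud progenitors were tested against each other. The study's methods speak of biological replicates, but no label says whether the 2 libraries of a group came from separate cultures, and p-values then measure only the spread between these libraries, which may be technical. In bulk RNA, fewer cells of a type and less RNA per cell cannot be told apart either.

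SWI/SNF complexes, also called BAF complexes, use ATP to slide and evict nucleosomes and so open promoters and enhancers. Each holds 1 ATPase, SMARCA4 or SMARCA2, on a core with SMARCC and SMARCD proteins, and 3 assemblies differ in the rest. In canonical BAF and PBAF the core also holds SMARCB1 and SMARCE1. Canonical BAF carries ARID1A or ARID1B with a DPF protein. PBAF carries PBRM1, BRD7, PHF10 and ARID2, and non-canonical BAF carries BRD9 and BICRA or BICRAL. In developing neurons several subunits are exchanged for paralogs, ACTL6A for ACTL6B and PHF10 or DPF2 for DPF1 and DPF3, a textbook case of a complex rebuilt during differentiation. SMARCA1 and SMARCA5 are the ATPases of the ISWI remodelers, which space nucleosomes. Other ARID proteins bind AT-rich DNA or histone marks without being SWI/SNF subunits.

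Library totals ranged from 6368953 to 17972284 counts. A floor of 3 counts was worth 0.167 to 0.471 CPM, where CPM are counts scaled to a fixed library total. Members together took between 0.357% and 0.766% of the counts of a library. Ribosomal RNA genes took 3.09% to 13.4% of the counts in P-body libraries and 9.63% to 24.9% in cytoplasm libraries, lower in P-bodies of every cell type. The replicates of neuron P-bodies stood further apart than the others, with a Spearman rho of 0.911 across genes against 0.962 to 0.987 elsewhere. In neuron libraries 8 of 8 neuronal markers were above the floor, with a summed level of 8024 to 9785 CPM against 48.6 to 205 CPM in the other human libraries. Of 6 neural progenitor markers 6 were above the floor in neurons too, with a sum of 944 to 1047 CPM in P-bodies and 569 to 578 CPM in the cytoplasm. In liver bud progenitor libraries 9 of 10 hepatic endoderm markers were above the floor, with a sum of 224 to 233 CPM in P-bodies and 473 to 491 CPM in the cytoplasm, but the same list reached 270.1 and 273 CPM in neuron P-bodies, mostly PROX1. ALB lay at or below the floor in each liver bud progenitor library, between 0 and 0.195 CPM, and AFP reached only 5.45 to 8.16 CPM. There 5 pluripotency markers summed to 1378 to 2409 CPM, against 15.3 to 36.9 CPM in neurons. The sum was higher in P-bodies than in cytoplasm, mostly through L1TD1, at 1408 and 1334 CPM against 509 and 475. NANOG, LIN28A and DPPA4 were higher by less, and POU5F1 overlapped, at 82.5 and 95.4 CPM against 87.3 and 84.3. In mESC 7 of 7 naive pluripotency markers were above the floor. The part of these other markers in any result was not tested.

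Some mRNAs of these remodelers were P-body enriched in all 4 cell types and others were depleted in all 4. Enrichment is the log2 ratio of P-body to cytoplasm, given with its standard error, and normalised CPM are CPM after TMM scaling of the 4 libraries of a cell type. Calls are at an adjusted p under 0.05 (edgeR). In HEK293T 14 of 31 members were enriched and 9 depleted, where 19.3% and 22.8% of all genes tested were, and 44.2% and 38.3% of the genes whose mean reached 10 CPM. Liver bud progenitors had 10 enriched and 12 depleted members, against 21.4% and 17.1% of all genes and 47.2% and 27.8% of those that reached 10 CPM. Neurons had 10 enriched and 9 depleted members, against 14.6% and 14.1%, and 27% and 33% at 10 CPM. In mESC 11 of 30 members were enriched and 7 depleted, against 25.8% and 20.6%, and 47.8% and 24.3% at 10 CPM. The depleted count in mESC was 4 without P-body replicate 2. When libraries were scaled by their totals alone, neurons had 11 enriched and 5 depleted members and mESC 5 and 15. Of members with at least 10 CPM, 13 of 25 were enriched and 7 depleted in HEK293T, 10 and 12 of 26 in liver bud progenitors, 10 and 9 of 28 in neurons and 11 and 7 of 25 in mESC. Here the depleted share was above that of genes of this level in liver bud progenitors and below it in HEK293T. These shares carry no test. The median change of the members was 0.12, -0.23, 0.06 and 0.09 in that order, and that of all genes tested -0.01, -0.09, 0.19 and -0.11. Among members with at least 10 CPM the median was 0.31, -0.19, 0.06 and 0.04. Over all genes of that level it was 0.09, 0.24, -0.19 and 0.20, so in neurons and mESC the order depends on the background.

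Of the 30 members found in both tables, 7 were enriched in all 4 cell types: ARID4A, ARID4B, PBRM1, SMARCAD1, BRD7, SMARCA5 and SMARCE1, of which the last 3 fell below 0 in mESC when libraries were scaled by their totals alone. Of all 12616 symbols found in both tables, 10.2% were enriched in all 4, a background that holds genes of every level. A further 5 members were depleted in all 4, namely SMARCA4, ARID1A, SMARCB1, SMARCD1 and DPF2, against 5.26% of all symbols. Between these ends, 6 members were enriched in some cell types and depleted in none, 7 were depleted in some and enriched in none, ARID1B, DPF1, SMARCA2 and SMARCC2 were called in both directions, and ARID5A, at or below 4.10 normalised CPM in every library, was never called. The order of the members was alike in the 4 cell types: the Spearman rho of their changes between pairs of cell types was 0.58 to 0.77 (n = 30 genes), against 0.30 to 0.58 over all 12616 symbols. The 2 ranges are not matched for level. In HEK293T 25 of 31 members reached 10 CPM, against 8266 of 21903 genes tested. Whether members are more alike between cell types than genes of their level was not tested. Genes are not independent replicates, and the points share base composition and expression level, so these are descriptions.

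**Figure D1:**
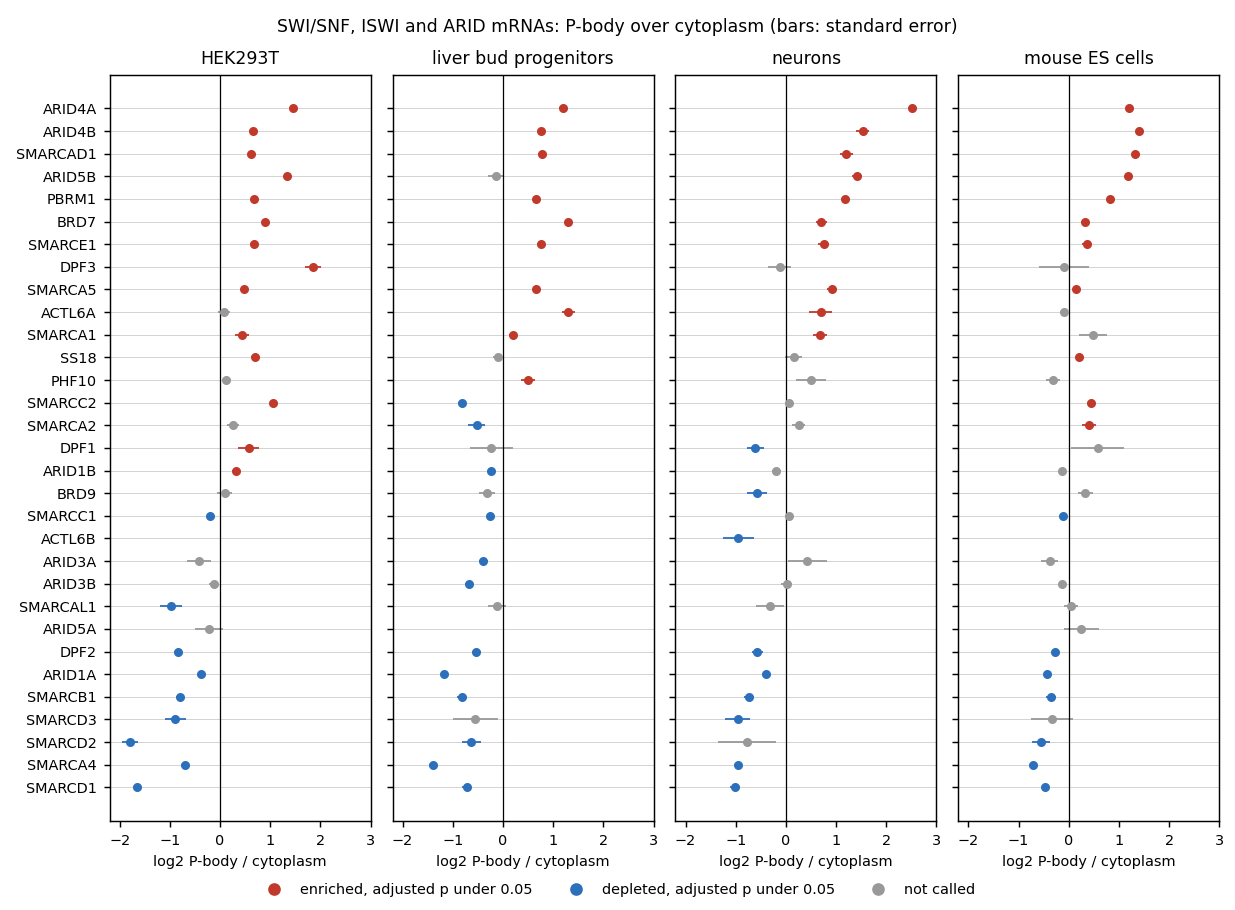
Log2 ratio of P-body to cytoplasm for each member in HEK293T, liver bud progenitors, neurons and mESC, with bars for the standard error and colour for the call at an adjusted p under 0.05. ACTL6B in HEK293T and liver bud progenitors, ARID5A in liver bud progenitors and neurons, and DPF3 in liver bud progenitors are left out for their low counts. ARID4A, ARID4B and SMARCAD1 lie right of 0 in every panel and SMARCA4, SMARCD1 and SMARCB1 left of it, while SMARCC2 changes side between HEK293T and liver bud progenitors.

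The members that were P-body enriched and those that were depleted differed in base composition, in their codons and over the whole transcript, a property the rule did not use. In the 5 human mRNAs depleted in all 4 cell types, a median of 64.6% of codons ended in G or C (range 59.6% to 79.4%), and in the 7 enriched in all 4 it was 37.0% (30.2% to 48.4%), with no overlap. In mouse the medians were 66.2% and 42.9%, again with no overlap. Over all 17505 human coding genes the median was 60.4%. The difference was not confined to codons. G and C made up 36.9% to 43.5% of the whole transcript in the enriched human mRNAs and 51.1% to 60.6% in the depleted. In human 3′ UTRs the ranges were 30.8% to 40.04% and 40.06% to 59.8%. Mouse transcripts had 40.7% to 51.7% and 54.1% to 57.2%, while mouse 3′ UTR ranges overlapped. A stretch of coding sequence from 2 mRNAs at each end is printed to show the difference in codons. Each is 60 bases from within 1 exon, 5′ to 3′ on the plus strand of hg38 and in frame, chosen because its share of codons ending in G or C is nearest to that of the whole coding sequence, and capitals mark a G or C at the end of a codon. SMARCAD1 (chr4:94270756-94270815, codons 504 to 523) and ARID4A (chr14:58353794-58353853, codons 598 to 617) have 6 of 20 such codons, ARID1A (chr1:26771260-26771319, codons 1114 to 1133) has 13 of 20 and SMARCA4 (chr19:11019603-11019662, codons 840 to 859) has 16 of 20.
SMARCAD1: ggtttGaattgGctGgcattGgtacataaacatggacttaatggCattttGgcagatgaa
ARID4A: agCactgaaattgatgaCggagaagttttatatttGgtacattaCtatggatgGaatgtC
ARID1A: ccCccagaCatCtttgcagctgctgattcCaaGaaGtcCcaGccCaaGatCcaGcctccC
SMARCA4: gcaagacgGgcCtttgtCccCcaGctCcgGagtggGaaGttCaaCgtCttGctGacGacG

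Across members whose mean reached 10 CPM, the percentage of codons ending in G or C and the P-body change had a Spearman rho of -0.45 in HEK293T (n = 25), -0.83 in liver bud progenitors (n = 26), -0.87 in neurons (n = 28) and -0.64 in mESC (n = 25). Over all genes of that level rho was -0.52, -0.64, -0.66 and -0.61, a relation that the members share with the genes at large. For the percentage of G and C over the whole transcript, rho among members was -0.60, -0.82, -0.86 and -0.72. Over all genes of that level it was -0.56, -0.72, -0.68 and -0.71, so the relation is not particular to codons. Transcript length showed a weaker relation among members, with rho between -0.01 and 0.40. By definition, 25% of the genes in a composition range lie above its upper quartile and 25% below its lower quartile. Against these quartiles, 6 of 25 members lay above and 4 below in HEK293T, and 3 and 9 of 26 in liver bud progenitors. Neurons had 4 and 1 of 28 members, and mESC 4 and 7 of 25. Those above included DPF3 and SMARCC2 in HEK293T and ARID5B in HEK293T, neurons and mESC, and those below SMARCD1 in every cell type, SMARCA4 in liver bud progenitors and mESC, and SMARCC1 in all but neurons. ARID5B, for instance, has 55.9% of codons ending in G or C and changed by 1.42 in neurons, where the upper quartile of genes with 50% to 60% was 0.48. These are descriptions over genes and carry no test, and depth and library are shared by all points of a panel.

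**Figure D2:**
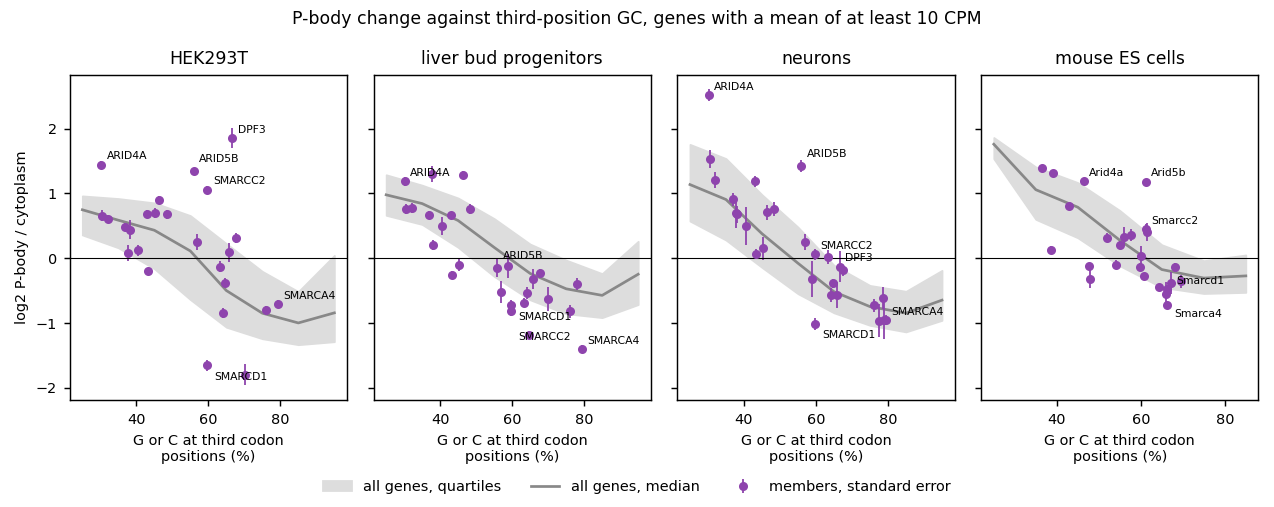
P-body change (log2) against the percentage of codons ending in G or C, for members whose mean reached 10 CPM (points, bars for the standard error) and for all genes of that level in bins of 10 percentage points (line for the median, band for the quartiles). Members fall from upper left to lower right with the band in each cell type, with DPF3, ARID5B and SMARCC2 above it and SMARCD1 and SMARCD2 below it in HEK293T.

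The mRNAs of the 2 SWI/SNF ATPases were unlike each other. SMARCA4, the main ATPase of dividing cells (BRG1; chr19:10960932-11079426, plus strand of hg38 in GENCODE 44, as for all genes placed here), was depleted from P-bodies everywhere. In HEK293T it had 143 and 132 normalised CPM in P-bodies against 216 and 231 in the cytoplasm, in liver bud progenitors 207 and 187 against 499 and 542, in neurons 599 and 556 against 1151 and 1088 and in mESC 298 and 310.0 against 492 and 506. In none of the cell types did the fractions overlap. The log2 changes were -0.70 ± 0.06, -1.40 ± 0.06, -0.96 ± 0.08 and -0.72 ± 0.04 in HEK293T, liver bud progenitors, neurons and mESC (SE, n = 2 per fraction), with adjusted p-values of 1.60e-14, 4.47e-30, 1.10e-06 and 3.92e-13. Its paralog SMARCA2 (BRM; chr9:1980290-2193624, plus strand) was far less abundant and followed no common direction. SMARCA2 was depleted in liver bud progenitors, with 15.9 and 15.6 normalised CPM in P-bodies against 24.7 and 20.7 in the cytoplasm and a change of -0.52 ± 0.17 (adjusted p = 0.00745). It was enriched in mESC, at 0.40 ± 0.14 (adjusted p = 0.0218), and was not called in HEK293T (0.25 ± 0.12) or neurons (0.25 ± 0.13). Per length, SMARCA2 made up 19.0% ± 0.463 (SD, n = 2) of the sum of both ATPase mRNAs in HEK293T P-bodies and 10.8% ± 1.14 in the cytoplasm. In neurons its share was 12.6% ± 0.343 against 5.89% ± 0.666, and in mESC 7.47% ± 0.0561 against 3.58% ± 0.0563, so SMARCA4 was the major ATPase mRNA of every library. The SMARCA2 call in liver bud progenitors was lost with DESeq2 and without cytoplasm replicate 1 (adjusted p between 0.0702 and 0.143), and that in mESC with DESeq2, library totals alone or filterByExpr and without P-body replicate 1, P-body replicate 2 or cytoplasm replicate 1 (adjusted p between 0.0530 and 0.994).

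The core subunits were divided too. SMARCB1, the nucleosome-facing core subunit that is lost in rhabdoid tumours (chr22:23786931-23838009, plus strand), was depleted in each cell type, at -0.80 ± 0.07, -0.82 ± 0.10, -0.73 ± 0.10 and -0.36 ± 0.10 in the same order (adjusted p = 6.30e-15, 5.55e-10, 8.95e-05 and 0.00589). It had 118 and 120.3 normalised CPM in P-bodies against 197 and 198 in the cytoplasm of neurons. The SMARCB1 transcript in GENCODE shares 56.3% of its bases with exons of DERL3 on the other strand, which had a mean of 0.286 to 2.43 CPM in the human cell types, far below SMARCB1. SMARCD1, a subunit that links the complex to transcription factors (chr12:50085200-50100707, plus strand), was depleted most in HEK293T, with 43.3 and 38.3 normalised CPM in P-bodies against 126 and 129.8 in the cytoplasm and a change of -1.65 ± 0.08 (adjusted p = 1.35e-25). Its changes in liver bud progenitors, neurons and mESC were -0.73 ± 0.08, -1.01 ± 0.09 and -0.48 ± 0.06 (adjusted p = 9.79e-12, 3.55e-06 and 4.87e-07). SMARCD2 and SMARCD3, its paralogs, were depleted where they were called. SMARCD2 changed by -1.80 ± 0.16, -0.63 ± 0.18 and -0.56 ± 0.19 in HEK293T, liver bud progenitors and mESC, and SMARCD3 by -0.89 ± 0.20 and -0.96 ± 0.25 in HEK293T and neurons. SMARCD3 had means of only 2.08 to 20.8 CPM and shares 31.8% of its transcript with CHPF2 on the other strand, whose means were 18.2 to 24.9 CPM in the human cells and whose own changes were -1.11, -1.27 and -1.78, so reads of the 2 genes may be mixed. SMARCE1, a core subunit with an HMG domain (chr17:40624962-40648654, minus strand), went the other way. It was enriched at 0.68 ± 0.07, 0.76 ± 0.08, 0.76 ± 0.11 and 0.36 ± 0.10 (adjusted p = 6.37e-12, 1.25e-13, 1.52e-04 and 0.00361), with 124 and 129.6 normalised CPM in P-bodies against 79.3 and 79.3 in the cytoplasm of HEK293T, but in mESC its change was -0.043 when libraries were scaled by totals alone.

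SMARCC1 and SMARCC2 are paired scaffold subunits that build the base of the complex. SMARCC1 (chr3:47585269-47782106, minus strand) was the member with the most counts in the cytoplasm of HEK293T, liver bud progenitors and mESC and changed little. It had 540.2 and 529 normalised CPM in P-bodies against 611 and 614 in the cytoplasm of HEK293T, and its changes were -0.20 ± 0.05, -0.25 ± 0.05, 0.06 ± 0.08 and -0.12 ± 0.04, called in all but neurons (adjusted p = 0.00116, 1.77e-05, 0.569 and 0.00871). SMARCC2 (chr12:56162359-56189567, minus strand) moved in opposite directions. HEK293T had 418 and 408 normalised CPM in P-bodies against 195 and 201 in the cytoplasm, a change of 1.06 ± 0.06 (adjusted p = 6.01e-24). Liver bud progenitors had 124 and 129 against 217 and 230.2, a change of -0.82 ± 0.07 (adjusted p = 3.53e-16). In neurons the fractions overlapped, with 1121 and 975 against 1021 and 987 and a change of 0.06 ± 0.08 (95% interval -0.12 to 0.24, adjusted p = 0.599), and mESC gave 0.45 ± 0.08 (adjusted p = 4.66e-05). Exons of MYL6 on the other strand cover 14.1% of the SMARCC2 transcript. MYL6 changed by -1.29, 1.11 and -0.45 in HEK293T, liver bud progenitors and neurons, the reverse of SMARCC2 in HEK293T and liver bud progenitors, at a mean of 31.6, 84.0 and 66.1 CPM. The part of shared reads in the SMARCC2 values was not tested. Calls were lost for SMARCC1 in HEK293T with DESeq2, RLE size factors or all human libraries in a single fit (adjusted p between 0.0759 and 0.410), for SMARCC1 in mESC without P-body replicate 1 or P-body replicate 2 (adjusted p between 0.0837 and 0.0853), for SMARCC2 in mESC with library totals alone (adjusted p = 0.633), for SMARCB1 in mESC with DESeq2 and without P-body replicate 2 or cytoplasm replicate 2 (adjusted p between 0.0554 and 0.0751), for SMARCD2 in mESC with DESeq2 and without P-body replicate 1, P-body replicate 2 or cytoplasm replicate 2 (adjusted p between 0.0769 and 0.161), for SMARCE1 in mESC without cytoplasm replicate 2 (adjusted p = 0.0568) and for SMARCD3 in neurons without cytoplasm replicate 1 (adjusted p = 0.193).

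**Figure D3:**
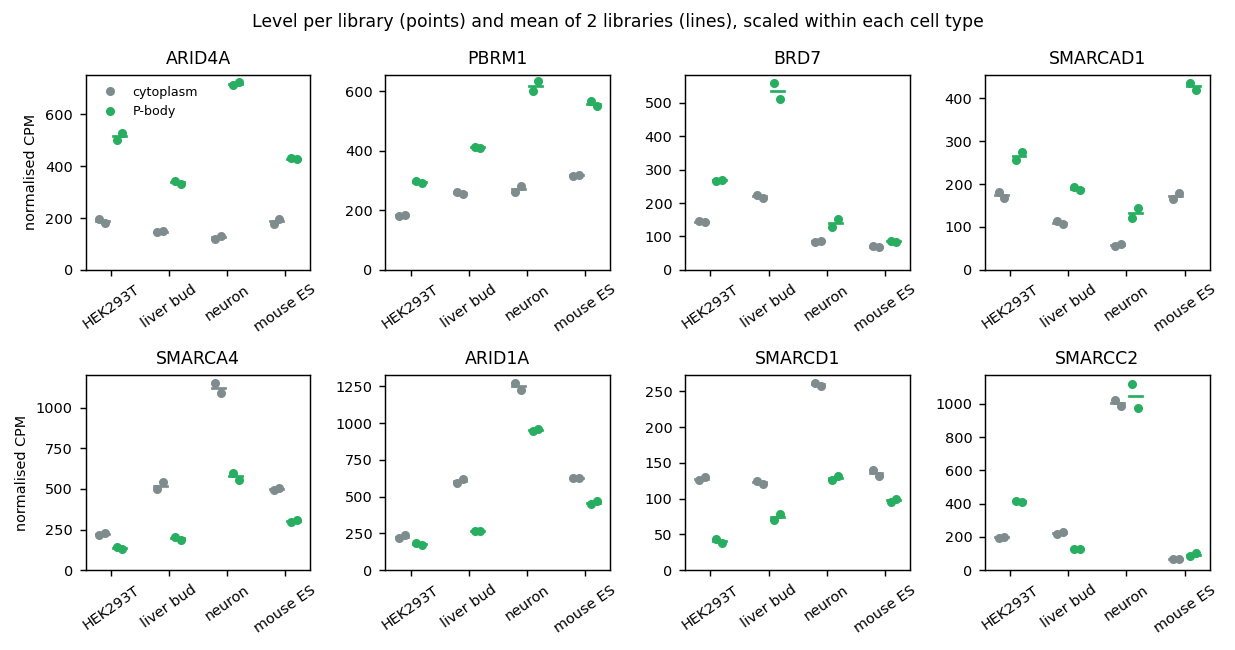
Normalised CPM of 8 members in each library (points) and the mean of 2 libraries (lines), with cytoplasm in grey and P-bodies in green, scaled within each cell type, so heights compare between fractions and not between cell types. P-body points lie above the cytoplasm for ARID4A, PBRM1, BRD7 and SMARCAD1 (for BRD7 in mESC the order is reversed on library totals alone), below it for SMARCA4, ARID1A and SMARCD1, and on either side for SMARCC2.

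The ARID1 subunits define canonical BAF and target it to enhancers. ARID1A, often mutated in carcinomas (chr1:26693236-26782104, plus strand), was depleted in all cell types. It had 268 and 268 normalised CPM in P-bodies against 591 and 622 in the cytoplasm of liver bud progenitors, where the depletion was deepest at -1.18 ± 0.06 (adjusted p = 4.26e-28), and its changes in HEK293T, neurons and mESC were -0.37 ± 0.06, -0.39 ± 0.07 and -0.44 ± 0.04 (adjusted p = 7.31e-07, 9.78e-04 and 1.04e-09). ARID1B (chr6:156776020-157210779, plus strand), which replaces ARID1A in the same position, was enriched in HEK293T at 0.31 ± 0.07 and depleted in liver bud progenitors at -0.23 ± 0.07 (adjusted p = 1.53e-04 and 0.00391). Neurons and mESC gave -0.19 ± 0.08 and -0.13 ± 0.06, not called. Per length, ARID1B made up 33.9% ± 0.0615 of the ARID1A and ARID1B mRNA in liver bud progenitor P-bodies and 21.1% ± 0.327 in the cytoplasm (SD, n = 2). The shares in HEK293T were 38.0% ± 0.342 and 27.6% ± 1.54, and in neurons 23.9% ± 0.00701 and 21.5% ± 0.427. In each of these cell types, and in mESC at 22.0% ± 0.676 against 18.5% ± 0.0548, ARID1B took a larger part of the pair in P-bodies, and the libraries did not overlap. DPF2, the reader of acetylated histones found in canonical BAF of most cells (chr11:65333843-65354262, plus strand), was depleted at -0.84 ± 0.08, -0.53 ± 0.09, -0.57 ± 0.11 and -0.28 ± 0.05 (adjusted p = 1.11e-14, 1.13e-06, 0.00124 and 7.18e-05). The ARID1A call in neurons was lost with library totals alone (adjusted p = 0.0604).

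Of the subunits that set PBAF apart, PBRM1 was enriched in every cell type, BRD7 likewise except in mESC on library totals alone, and PHF10 in 1 cell type. PBRM1, the polybromo subunit that reads acetylated histones and is a tumour suppressor in kidney cancer (chr3:52545352-52685917, minus strand), had 297 and 291 normalised CPM in P-bodies against 181 and 185 in the cytoplasm of HEK293T. The other cell types had 414 and 408 against 263 and 256 in liver bud progenitors, 602 and 633 against 259.8 and 283 in neurons and 566 and 549 against 316 and 319 in mESC. Its changes were 0.68 ± 0.06, 0.66 ± 0.06, 1.19 ± 0.08 and 0.81 ± 0.04 in HEK293T, liver bud progenitors, neurons and mESC (adjusted p = 2.52e-15, 1.90e-15, 3.39e-07 and 1.77e-14), largest in neurons. BRD7, its bromodomain partner (chr16:50313487-50368988, minus strand), was enriched most in liver bud progenitors, with 560.3 and 512 normalised CPM in P-bodies against 225 and 215 in the cytoplasm and a change of 1.29 ± 0.06. Elsewhere BRD7 changed by 0.90 ± 0.06, 0.71 ± 0.12 and 0.32 ± 0.07 in HEK293T, neurons and mESC (adjusted p = 1.20e-19, 8.64e-29, 5.18e-04 and 7.00e-04 over the 4 cell types in the usual order), and the mESC value was -0.086 on library totals alone. ADCY7 on the other strand shares 40.2% of the BRD7 transcript, at a mean of only 2.15 to 4.07 CPM. PHF10, a subunit of PBAF in progenitors (chr6:169703902-169725566, minus strand), was called only in liver bud progenitors, at 0.49 ± 0.14 (adjusted p = 0.00277). It gave 0.12 ± 0.09, 0.50 ± 0.29 and -0.32 ± 0.14 in HEK293T, neurons and mESC. The PHF10 call was lost with DESeq2 or library totals alone and without P-body replicate 1 (adjusted p between 0.0639 and 0.190). C6orf120 on the other strand shares 22.4% of the PHF10 transcript, at 3.56 to 16.3 CPM, and in liver bud progenitors its own change was 0.83. ARID2, the DNA-binding subunit of PBAF that the symbol rule left out, was enriched in all cell types, at 0.86 ± 0.06, 0.27 ± 0.06, 0.71 ± 0.09 and 0.40 ± 0.04 (adjusted p = 8.17e-21, 7.17e-05, 4.74e-05 and 1.40e-08). On library totals alone ARID2 was not called in liver bud progenitors (0.080, adjusted p = 0.324) or mESC (-0.0035, adjusted p = 0.950).

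BRD9, the bromodomain subunit that defines non-canonical BAF (chr5:850291-892801, minus strand), was low, with means of 16.7 to 31.5 normalised CPM per fraction. It was called only in neurons, where it had 22.1 and 20.3 normalised CPM in P-bodies against 31.2 and 31.8 in the cytoplasm and a change of -0.57 ± 0.20 (adjusted p = 0.0478), and that call was lost with DESeq2, RLE size factors, library totals alone or filterByExpr and without cytoplasm replicate 1 or cytoplasm replicate 2 (adjusted p between 0.0727 and 0.293). The other cell types gave 0.09 ± 0.15, -0.32 ± 0.16 and 0.33 ± 0.14. SS18, a subunit shared by canonical and non-canonical BAF and the partner in the fusion of synovial sarcoma, was enriched in HEK293T, with 148 and 143 normalised CPM in P-bodies against 88.9 and 90.1 in the cytoplasm and a change of 0.70 ± 0.07 (adjusted p = 6.98e-13). In mESC the SS18 change was 0.21 ± 0.06 (adjusted p = 0.00665), a sign that turned to -0.19 with library totals alone. That call was lost with DESeq2 or filterByExpr and without P-body replicate 1 (adjusted p between 0.0524 and 0.0861). Liver bud progenitors and neurons gave -0.10 ± 0.09 and 0.15 ± 0.17 for SS18, not called.

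Among the remodelers outside SWI/SNF, the ISWI ATPases were both enriched where called, although SMARCA5 in mESC fell below 0 on library totals alone. SMARCA5, the widely expressed ISWI ATPase (chr4:143513702-143557486, plus strand), had 262 and 257 normalised CPM in P-bodies against 130.3 and 145 in the cytoplasm of neurons. Its changes were 0.48 ± 0.06, 0.66 ± 0.06, 0.91 ± 0.10 and 0.13 ± 0.05 (adjusted p = 5.54e-10, 6.76e-15, 1.23e-05 and 0.0471), and in mESC, where P-body libraries lay at 241 and 219 against 201 and 218, the change became -0.27 on library totals alone. It was 0.23 without mESC P-body replicate 2. The SMARCA5 call in mESC was lost with DESeq2, RLE size factors or filterByExpr and without P-body replicate 1 or cytoplasm replicate 1 (adjusted p between 0.0825 and 0.461). SMARCA5-AS1 on the other strand shares 5.21% of the human transcript at 5.71 to 17.8 CPM, and the mouse table lists a Smarca5 pseudogene that may share reads with the gene. SMARCA1, the ISWI ATPase linked to neural development (chrX:129446501-129523500, minus strand), was enriched in neurons at 0.68 ± 0.13 (adjusted p = 0.00170), with 98.0 and 120.0 normalised CPM in P-bodies against 65.2 and 70.9 in the cytoplasm. HEK293T and liver bud progenitors gave 0.44 ± 0.15 and 0.20 ± 0.08 (adjusted p = 0.0103 and 0.0415), and mESC, at 2.87 to 4.85 normalised CPM, 0.48 ± 0.28, not called. SMARCA1 calls were lost in HEK293T with library totals alone and without P-body replicate 1 or cytoplasm replicate 2 (adjusted p between 0.0831 and 0.133) and in liver bud progenitors with DESeq2, RLE size factors, library totals alone, filterByExpr, all human libraries in a single fit or the ribosomal RNA genes left out and without P-body replicate 1, P-body replicate 2 or cytoplasm replicate 1 (adjusted p between 0.0697 and 0.897). SMARCAD1, a remodeler with a role in restoring silent chromatin behind the replication fork (chr4:94207611-94291292, plus strand), had 436 and 419 normalised CPM in P-bodies against 164 and 180.0 in the cytoplasm of mESC. It was enriched at 0.61 ± 0.06, 0.78 ± 0.07, 1.21 ± 0.13 and 1.31 ± 0.05 (adjusted p = 6.51e-13, 1.24e-14, 1.15e-05 and 6.26e-17). SMARCAL1, which remodels stalled replication forks (chr2:216412383-216483053, plus strand), was depleted in HEK293T at -0.97 ± 0.22 (adjusted p = 1.93e-04), where it had 3.43 and 5.69 normalised CPM in P-bodies against 9.16 and 8.94 in the cytoplasm, and was called nowhere else.

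ARID4A was among the most enriched members in each cell type, highest in neurons. DPF3 lay above it in HEK293T, ACTL6A and BRD7 in liver bud progenitors and ARID4B and SMARCAD1 in mESC. ARID4A and ARID4B are subunits of a histone deacetylase complex that binds the retinoblastoma protein. ARID4A (chr14:58298504-58373887, plus strand) had 713 and 724 normalised CPM in P-bodies against 119 and 132 in the cytoplasm of neurons, and 503 and 527 against 197 and 181 in HEK293T, 344 and 331 against 146 and 150.3 in liver bud progenitors and 431 and 427 against 179 and 197 in mESC. The lowest P-body library lay well above the highest cytoplasm library each time. Its changes were 1.45 ± 0.06, 1.19 ± 0.07, 2.52 ± 0.09 and 1.19 ± 0.05 (adjusted p = 5.51e-30, 3.98e-25, 1.89e-09 and 2.89e-16). ARID4B (chr1:235131634-235328219, minus strand) was enriched at 0.66 ± 0.08, 0.76 ± 0.07, 1.53 ± 0.14 and 1.39 ± 0.04 (adjusted p = 2.57e-10, 4.29e-14, 2.42e-06 and 7.03e-19). In neurons it had 145 and 181 normalised CPM in P-bodies against 52.7 and 60.5 in the cytoplasm. ARID5B, a partner of the PHF2 demethylase with roles in fat, cartilage and lymphoid cells (chr10:61901684-62096944, plus strand), was enriched in 3 cell types and not in liver bud progenitors. It had 599 and 601 normalised CPM in P-bodies against 232 and 241 in the cytoplasm of HEK293T, 327 and 340.5 against 123 and 127 in neurons and 698 and 711 against 321 and 301 in mESC, and changes of 1.34 ± 0.06, 1.42 ± 0.09 and 1.18 ± 0.04 (adjusted p = 1.65e-29, 1.55e-07 and 2.05e-17). In liver bud progenitors ARID5B lay at 21.5 and 24.3 against 26.5 and 24.3, with overlapping fractions and a change of -0.14 ± 0.15 (95% interval -0.44 to 0.15). ARID3A and ARID3B, factors that bind AT-rich DNA in early embryonic and lymphoid cells, were called only in liver bud progenitors, depleted at -0.39 ± 0.09 and -0.69 ± 0.07 (adjusted p = 2.96e-04 and 1.17e-13). The ARID3A call was lost with all human libraries in a single fit (adjusted p = 0.0693).

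Neurons and liver bud progenitors came from the same ES line and library kit and could be compared directly. In the cytoplasm, ACTL6B, DPF1, DPF3, SMARCD3, SMARCC2 and SMARCA2 were higher in neurons. Among their paralogs ACTL6A, PHF10 and SMARCD2 were lower, but SMARCA4, SMARCD1 and DPF2 were higher too. Of 10 other SWI/SNF subunits outside the symbol rule, 6 were higher in neurons and 3 lower. SS18L1 was the 1 not called, with a log2 difference of 0.74 ± 0.41 (adjusted p = 0.171, edgeR). BCL11A and BCL11B were lower, at -0.42 ± 0.09 and -1.06 ± 0.19 (adjusted p = 8.54e-04 and 2.53e-04, edgeR). Normalised CPM in this comparison are scaled over the 8 libraries of both cell types. ACTL6B, the actin-like subunit of the neuronal complex (chr7:100643097-100656448, minus strand), had 58.4 and 55.1 normalised CPM in neurons against 0.285 and 0.122 in liver bud progenitors. These are 1141 against 3 counts over both libraries, a ratio of 241 in CPM with a 95% counting interval (exact binomial) of 82.2 to 1170. The ACTL6B level of liver bud progenitors lies at or below the floor of 3 counts per library. DPF1 had 90.8 and 75.3 normalised CPM in neurons against 2.56 and 2.82 in liver bud progenitors, a log2 difference of 4.94 ± 0.25 (SE, n = 2 per cell type, adjusted p = 1.13e-10). DPF3 had 24.5 and 28.3 normalised CPM in neurons against 0.427 and 0.979 in liver bud progenitors, at 5.17 ± 0.44 (adjusted p = 6.86e-08). SMARCD3 was at 3.34 ± 0.31, SMARCC2 at 2.25 ± 0.08 and SMARCA2 at 1.74 ± 0.14 (adjusted p = 1.65e-07, 2.56e-12 and 3.05e-08). For each of these mRNAs both neuron libraries lay above both liver bud progenitor libraries.

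Other partners were lower in neurons than in liver bud progenitors, a difference between 2 derivatives of the ES line and not a change over time. ACTL6A, the actin-like subunit of dividing cells (chr3:179562886-179588407, plus strand), had 14.2 and 15.3 normalised CPM in neurons against 21.9 and 20.3 in liver bud progenitors, a log2 difference of -0.52 ± 0.17 (adjusted p = 0.0205). That call was lost with DESeq2 or the ribosomal RNA genes left out and without liver bud cytoplasm replicate 1, liver bud cytoplasm replicate 2, neuron cytoplasm replicate 1 or neuron cytoplasm replicate 2 (adjusted p between 0.0563 and 0.183). PHF10 differed by -1.02 ± 0.23 (adjusted p = 0.00144) and SMARCD2 by -2.19 ± 0.31 (adjusted p = 2.50e-05). SMARCC1 differed by only -0.20 ± 0.06 (adjusted p = 0.0166). The lowest in neurons relative to liver bud progenitors was ARID3A, with 6.23 and 7.23 normalised CPM against 72.9 and 78.1 (-3.49 ± 0.20, adjusted p = 4.65e-10). BRD7 and ARID3B were also lower in neurons, at -1.28 ± 0.09 and -1.10 ± 0.09. The others of these paralogs were higher in neurons. SMARCA4 differed by 1.18 ± 0.08 and SMARCD1 by 1.16 ± 0.09 (adjusted p = 2.14e-09 and 1.84e-08), and DPF2 had 152 and 152 normalised CPM in neurons against 79.6 and 82.0 in liver bud progenitors (0.91 ± 0.10, adjusted p = 8.15e-07). In all, 14 of 31 members were higher in neuron cytoplasm and 12 lower, against 19.2% and 23.7% of all genes and 35% and 39.3% of genes with at least 10 CPM. Calls were lost for SMARCA1, at -0.35 ± 0.11, with DESeq2, all human libraries in a single fit or the ribosomal RNA genes left out and without liver bud cytoplasm replicate 2, neuron cytoplasm replicate 1 or neuron cytoplasm replicate 2 (adjusted p between 0.0672 and 0.297), for SMARCC1 with RLE size factors, all human libraries in a single fit or the ribosomal RNA genes left out and without liver bud cytoplasm replicate 1, liver bud cytoplasm replicate 2, neuron P-body replicate 1, neuron P-body replicate 2, neuron cytoplasm replicate 1 or neuron cytoplasm replicate 2 (adjusted p between 0.0580 and 0.460) and for SS18, at -0.59 ± 0.14, without neuron cytoplasm replicate 1 (adjusted p = 0.0916).

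**Figure D4:**
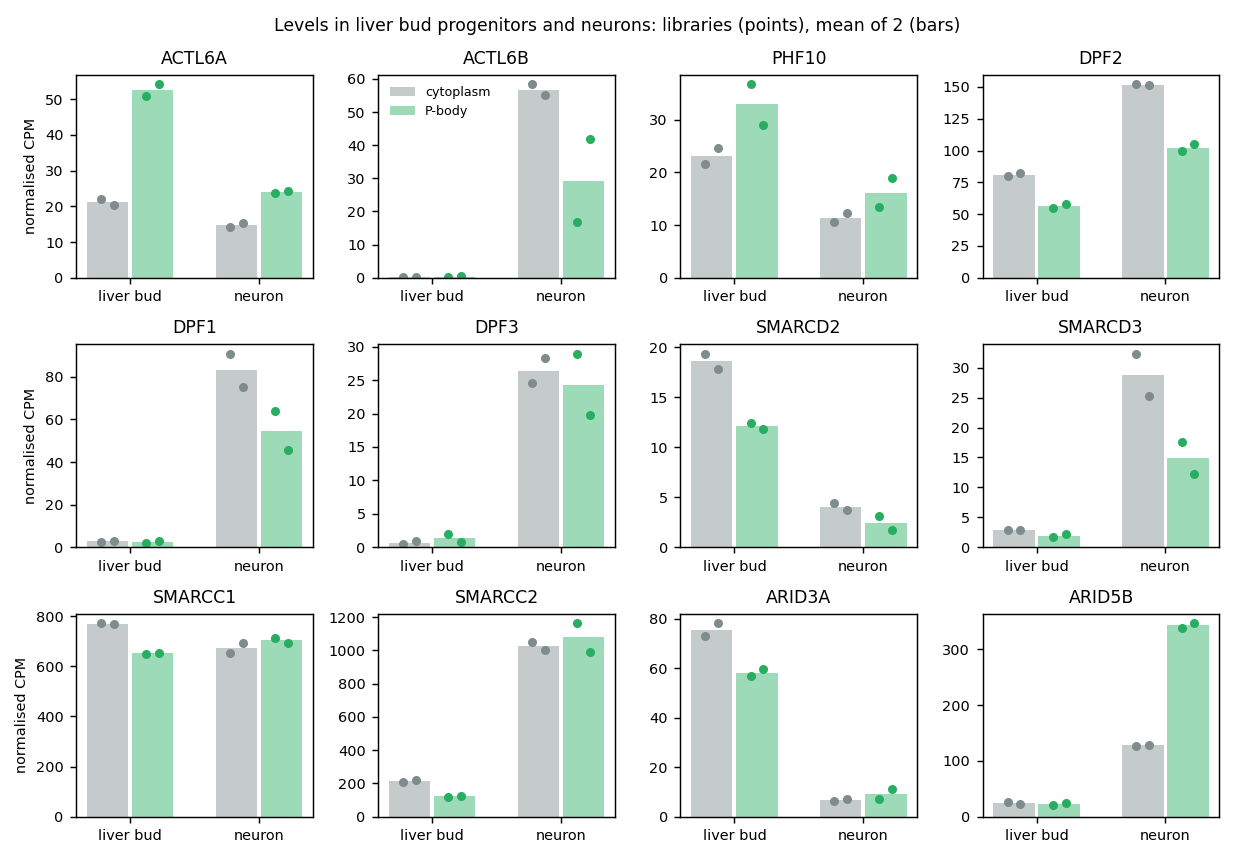
Normalised CPM, scaled over 8 libraries, of 12 members in cytoplasm (grey) and P-bodies (green) of liver bud progenitors and neurons, with points for libraries and bars for the mean of 2. ACTL6B, DPF1, DPF3 and SMARCD3 are near 0 in liver bud progenitors and present in neurons, ACTL6A stands higher in P-bodies than in cytoplasm in both, and ARID5B is above its cytoplasm only in neuron P-bodies.

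In neuron P-bodies ACTL6B, DPF1 and SMARCD3 were depleted and ACTL6A was enriched, while DPF2 was depleted and DPF3 and PHF10 were not called. ACTL6B had 16.1 and 41.1 normalised CPM in P-bodies against 56.7 and 54.1 in the cytoplasm, a change of -0.95 ± 0.30 (adjusted p = 0.0336), with P-body replicates that lay far apart. The ACTL6B change was -0.43 without P-body replicate 1 and -1.78 without P-body replicate 2. The sum of the neural progenitor markers was higher in neuron P-bodies than in the cytoplasm, as ACTL6A was, through PAX6, SOX1 and SOX2. NES was lower there, at 133 and 105 CPM in P-bodies against 198 and 194 in the cytoplasm. HES5 was lower too, and VIM overlapped. The part of these markers in these values was not tested. DPF1 had 61.7 and 44.6 normalised CPM in P-bodies against 88.1 and 73.9 in the cytoplasm, at -0.61 ± 0.17, and SMARCD3 had 16.9 and 11.97 against 31.3 and 24.8, at -0.96 ± 0.25 (adjusted p = 0.0154 and 0.0108). Without P-body replicate 2 the DPF1 change was -0.39. DPF3 was not called (-0.13 ± 0.23, 95% interval -0.63 to 0.38), although in HEK293T it was the most enriched member, with 29.1 and 28.5 normalised CPM in P-bodies against 7.15 and 8.77 in the cytoplasm and 1.86 ± 0.16 (adjusted p = 5.88e-16). DPF1 was also enriched in HEK293T, at 0.57 ± 0.20 with 5.36 to 9.46 normalised CPM. ACTL6A, in contrast, was enriched in neurons, with 22.8 and 23.7 normalised CPM in P-bodies against 13.8 and 15.0 in the cytoplasm and a change of 0.69 ± 0.23 (adjusted p = 0.0405). In liver bud progenitors ACTL6A had 52.4 and 55.0 against 22.5 and 21.0, a change of 1.30 ± 0.12 (adjusted p = 1.23e-14) that stood with BRD7 at the top of the members there. HEK293T and mESC gave 0.08 ± 0.12 and -0.10 ± 0.08, not called. MRPL47 on the other strand shares 6.63% of the ACTL6A transcript, at 1.03 to 4.09 CPM in the human cell types. Per length, ACTL6B made up 82.4% ± 1.34 of the ACTL6 mRNA of neuron cytoplasm and 57.0% ± 15.3 of that in neuron P-bodies (SD, n = 2). In liver bud progenitors its share was 1.14% ± 0.585 and 0.584% ± 0.458. In neurons calls were lost for ACTL6A with DESeq2 and without cytoplasm replicate 1 or cytoplasm replicate 2 (adjusted p between 0.0583 and 0.338), for ACTL6B with DESeq2, library totals alone or filterByExpr (adjusted p between 0.0552 and 0.298) and for DPF1 with library totals alone and without cytoplasm replicate 1 (adjusted p between 0.0565 and 0.137), and in HEK293T for DPF1 with DESeq2 or library totals alone and without P-body replicate 1, P-body replicate 2 or cytoplasm replicate 2 (adjusted p between 0.0628 and 0.216).

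ACTL6A is a known target of miR-9-3p, 1 of the microRNAs that accompany the subunit exchange in neurons, and its sites are shown because ACTL6A is the progenitor subunit found enriched in P-bodies here. The mature microRNA and the matches to its seed (bases 2 to 8, in capitals in the first line) in the ACTL6A 3′ UTR are, 5′ to 3′ with the 7 matching bases AGCTTTA in capitals, from RefSeq (GRCh38.p14) and GENCODE 44:
hsa-miR-9-3p: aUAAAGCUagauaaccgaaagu
ACTL6A site 1: cgtttcatAGCTTTAgtatactc
ACTL6A site 2: ttttttaaAGCTTTAactggctc
Site 1 lies at chr3:179588051-179588073 and site 2 at chr3:179588140-179588162 on the plus strand of hg38, in a 3′ UTR of 397 bases. The same 7 bases, searched on the transcript strand only, occur in 14.6% of 17260 human 3′ UTRs and in 6 of 31 members: ACTL6A, SMARCA1, SMARCA2, SMARCC1, SMARCD2 and SMARCE1. Among these 6, the neuron P-body change ran from -0.77 (SMARCD2, not called) to 0.76 (SMARCE1). A match is a description of letters and no evidence that a site is used, and the counts hold no measurement of the microRNA.

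An interaction term tested whether the P-body change of a gene was unequal in neurons and in liver bud progenitors. It was called for 11 of 31 members. In 10 the change was higher in neurons, against 9.21% of all genes tested and 15.9% of those with at least 10 CPM, and in 1 it was higher in liver bud progenitors, against 8.5% and 18.4%. That last count was 3 without neuron P-body replicate 1 and 3 without neuron P-body replicate 2. Scaling by library totals alone gave 16 and 0. The median over members was 0.08, and that over all genes 0.23. With at least 10 CPM the order was reversed, at 0.24 over members and -0.09 over all genes of that level. ARID5B differed most, at 1.55 ± 0.15 (adjusted p = 3.07e-06), followed by ARID4A at 1.32 ± 0.10 (adjusted p = 5.58e-07). On the scale of 8 libraries ARID4A had much the same cytoplasm level in both, 122 and 135 normalised CPM in neurons against 142 and 145 in liver bud progenitors, but 739.8 and 737 in P-bodies of neurons against 334 and 326 in those of liver bud progenitors. Across members with at least 10 CPM (n = 29) the difference had a Spearman rho of 0.66 with coding length, and 0.41 over all genes of that level. For ARID5B both the cytoplasm level and the ratio were higher in neurons, with a cytoplasm difference of 2.38 ± 0.11.

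Other members were depleted in liver bud progenitors and less so, or not, in neurons. SMARCC2 differed by 0.87 ± 0.11, ARID1A by 0.78 ± 0.09, SMARCA2 by 0.77 ± 0.20, ARID3B by 0.70 ± 0.13, SMARCA4 by 0.44 ± 0.11 and SMARCC1 by 0.31 ± 0.09 (adjusted p = 5.81e-05, 1.53e-05, 0.0130, 0.00169, 0.00926 and 0.0237). ARID4B and PBRM1, enriched in both, differed by 0.76 ± 0.15 and 0.52 ± 0.10 (adjusted p = 0.00269 and 0.00164). The ARID4B difference was 0.47 without neuron P-body replicate 2, and that of SMARCA4 was 0.29 without neuron P-body replicate 1. BRD7 alone was held in P-bodies more in liver bud progenitors, at -0.59 ± 0.12 (adjusted p = 0.00307), a call that was lost with library totals alone (adjusted p = 0.279). ACTL6A gave -0.62 ± 0.23 and did not pass (adjusted p = 0.0802). For SMARCE1 the difference was -0.01 ± 0.14 (95% interval -0.30 to 0.28). Calls were lost for SMARCC1 with all human libraries in a single fit and without any single library (adjusted p between 0.0778 and 0.242), for SMARCA2 without liver bud P-body replicate 1, liver bud P-body replicate 2, liver bud cytoplasm replicate 1 or neuron cytoplasm replicate 1 (adjusted p between 0.0566 and 0.0969) and for SMARCA4 without liver bud P-body replicate 2, liver bud cytoplasm replicate 2 or neuron cytoplasm replicate 2 (adjusted p between 0.0644 and 0.125).

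**Figure D5:**
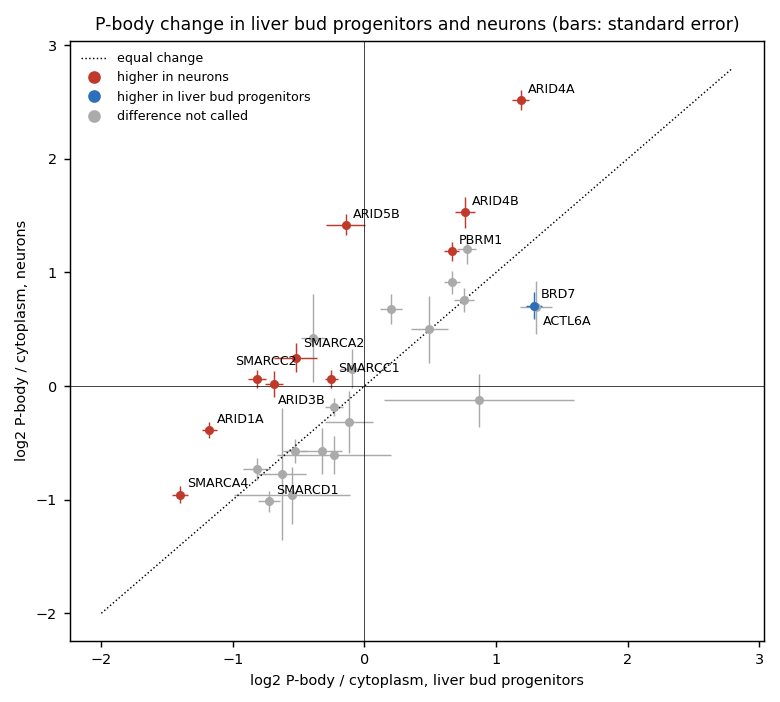
Log2 P-body to cytoplasm change in neurons (vertical) against liver bud progenitors (horizontal) for 29 members, with standard error bars, the line of equal change and colour for the call on the difference. ARID5B, ARID4A and SMARCC2 lie furthest above the line, and BRD7 below it.

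Partners of these complexes that the symbol rule left out were also found on both sides. Of 10 other SWI/SNF subunits (ARID2, SS18L1, BICRA, BICRAL, BCL7A, BCL7B, BCL7C, BCL11A, BCL11B and ACTB), 4 were enriched and 3 depleted in HEK293T, 6 and 2 in liver bud progenitors, 3 and 1 in neurons and 5 and 2 in mESC. ACTB, the actin of the complex and of the cytoskeleton, was depleted in each, at -1.54 ± 0.06, -0.72 ± 0.05, -0.93 ± 0.07 and -0.96 ± 0.04. BICRA and BICRAL, alternative subunits of non-canonical BAF, differed. BICRA gave -0.91 ± 0.22, -1.22 ± 0.24, -0.14 ± 0.21 and -0.47 ± 0.13, depleted in all but neurons (adjusted p = 4.75e-04, 1.79e-05, 0.649 and 0.00416), and BICRAL 0.58 ± 0.11, 0.19 ± 0.11, 0.50 ± 0.13 and 1.26 ± 0.05, enriched in all but liver bud progenitors (adjusted p = 1.06e-05, 0.190, 0.0131 and 3.59e-17). Of 9 ISWI partners, 6 were enriched and 3 depleted in HEK293T, 7 and 2 in liver bud progenitors, 6 and 1 in neurons and 5 and 2 in mESC. On library totals alone the mESC counts were 3 enriched and 2 depleted for the SWI/SNF subunits and 3 and 4 for the ISWI partners. These counts stand against the shares of all genes given above and carry no test. BAZ1A, the partner of SMARCA5 in replication, was enriched at 1.04 ± 0.05, 1.11 ± 0.06, 2.64 ± 0.09 and 1.09 ± 0.06, RSF1 at 1.09 ± 0.06, 1.04 ± 0.05, 1.40 ± 0.09 and 0.95 ± 0.04 and BAZ2B at 1.17 ± 0.06, 0.91 ± 0.05, 2.32 ± 0.08 and 1.34 ± 0.03. BAZ2A, which silences ribosomal DNA with SMARCA5, was depleted at -1.06 ± 0.07, -1.23 ± 0.06, -0.42 ± 0.08 and -0.72 ± 0.04. Of 4 further proteins with an ARID domain, KDM5A, a histone demethylase, was enriched in all cell types at 0.45 ± 0.07, 0.40 ± 0.07, 0.98 ± 0.10 and 0.33 ± 0.05, a value that became -0.076 in mESC on library totals alone. JARID2, a partner of the Polycomb complex, was enriched in HEK293T, neurons and mESC at 1.15 ± 0.06, 0.33 ± 0.09 and 0.19 ± 0.04 (in mESC -0.22 on library totals alone) and depleted in liver bud progenitors at -0.26 ± 0.06. In HEK293T 3 of these 4 genes were enriched and 1 depleted, in liver bud progenitors 1 and 3 and in neurons 3 and 1. In mESC 2 were enriched and KDM5B and KDM5C were not called, whereas on library totals alone JARID2, KDM5B and KDM5C were depleted and KDM5A was not called.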

How the data were processed

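P-body and cytoplasm RNA of 16 libraries was analysed, 2 per fraction in each of 4 cell types. The authors deposited raw counts per gene symbol, 1 table for human (hg38) and 1 for mouse (mm10), after dropping genes with fewer than 10 reads in all. Their methods give hisat2 with featureCounts for Smart-seq libraries and the nf-core pipeline with salmon for snapTotal-seq libraries. Which of the 2 made the polyA columns, and whether counting used strand, is not given in the sources used here, so antisense partners are named where they overlap. The deposited tables of differential expression (base means, fold changes and p-values) were not used.

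Counts were tested with edgeR 4.0.16 (R 4.3.3) by its quasi-likelihood test after TMM scaling, each cell type in its own fit and neurons with liver bud progenitors in a joint fit for the interaction and the cytoplasm. Benjamini-Hochberg adjustment ran over all genes with a threshold of 0.05, and intervals are 95%. The code was tested on simulated data. As alternatives, DESeq2 1.42.0 replaced edgeR, RLE factors or totals replaced TMM, filterByExpr was applied, ribosomal RNA genes or each library were left out, all human libraries were fitted together, and a replicate block was added. The members and lists were chosen with earlier results of these data known. By rule, every member is named, with partner lists of SWI/SNF, ISWI and ARID genes. Features come from GENCODE 44 (MANE Select transcripts) and M21 (longest coding sequence), matched for 92.5% of human and 97.6% of mouse symbols. Library totals set the precision, and the floor of 3 counts and the counting interval cover counting error only.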

Additional observations from a re-analysis of the deposited data

Results flagged for a closer look

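For 11 members the P-body to cytoplasm change differed between neurons and liver bud progenitors by the interaction term of edgeR's quasi-likelihood fit over 8 libraries. In 10 of them the log2 change was higher in neurons, by 1.55 for ARID5B, 1.32 for ARID4A, 0.87 for SMARCC2, 0.78 for ARID1A, 0.77 for SMARCA2, 0.76 for ARID4B, 0.70 for ARID3B, 0.52 for PBRM1, 0.44 for SMARCA4 and 0.31 for SMARCC1. For BRD7 it was higher in liver bud progenitors, with a difference of -0.59. Each group holds 2 libraries, too few for a test of single libraries that stand apart.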

How the results depend on the processing

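Of the counts of called members, those of HEK293T and liver bud progenitors and those of the neuron and liver bud progenitor cytoplasm stayed within 1.5 times the values given under every alternative. Scaling by library totals alone moved the median of all genes to -0.13 (HEK293T), -0.28 (liver bud progenitors), 0.35 (neurons) and -0.51 (mESC), to 0.58 for the interaction (0.23 with TMM) and to -0.49 for the cytoplasm (-0.24 with TMM). With it the depleted members in neurons numbered 5, those enriched in mESC 5 and those depleted in mESC 15, and the interaction called 16 members for neurons and 0 for liver bud progenitors (0 also at an unadjusted p under 0.05 by edgeR, and 1 by DESeq2 with its own size factors). In mESC the changes of Brd7 (-0.086), Smarca5 (-0.27), Smarcal1 (-0.36), Smarce1 (-0.043) and Ss18 (-0.19) turned negative, as did that of Brd9 (-0.071), not called in either case. The gene filter filterByExpr gave 12 depleted members in mESC, and the fit of all human libraries 3 members higher in liver bud progenitors. With each library left out in turn, the lone sample of a fraction being assumed to vary like the others, the depleted members in mESC numbered 4 to 8, the lowest without P-body replicate 2, and the members higher in liver bud progenitors by the interaction 1 to 3, the highest without either neuron P-body replicate. The cause of these changes was not tested. Near the floor, ARID5A in neurons was at -1.36 (adjusted p = 0.333), and passed the threshold only without neuron P-body replicate 1 (-2.85, adjusted p = 0.0278).

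Deviations of libraries with the same replicate number had correlations of -0.0077, -0.0006, -0.013 and 0.062 in HEK293T, liver bud progenitors, neurons and mESC. With 2 libraries per fraction, these values cannot settle whether libraries with the same number came from the same culture. With a replicate block the counts were 14 enriched and 9 depleted members in HEK293T, 10 and 12 for the liver bud, 10 and 10 for neurons and 11 and 8 for mESC. The interaction then called 13 and 1 members, and the cytoplasm 14 and 12.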

Other observations

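Of the 30 members found in both species, 17 had the larger share of codons ending in G or C in mouse and 13 in human, with no test. In ACTL6A 37.8% of codons ended in G or C in human and 54.1% in mouse, in ARID4A 30.2% and 46.5% and in SMARCE1 48.4% and 57.7%, but in SMARCA4 79.4% and 66.2% and in SMARCB1 76.1% and 69.6%. The ACTL6A change was 0.08 ± 0.12 in the HEK293T, 1.30 ± 0.12 in the liver bud, 0.69 ± 0.23 in the neuron and -0.10 ± 0.08 in the mESC libraries (SE, n = 2 per fraction). Seed matches of the other arm of the microRNA, hsa-miR-9-5p (ACCAAAG on the transcript strand), occur in 13.7% of human 3′ UTRs and in 8 of 31 members, ARID1A, ARID1B, ARID3B, DPF3, PBRM1, SMARCA5, SMARCD2 and SMARCE1, which were called in both directions.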
